A study of Mus musculus with 2 samples.

Results

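The mouse genome holds many C2H2 zinc finger genes in tandem arrays, and the genes described here are the clustered members of the Zfp series: protein-coding genes named Zfp and a number, Zfp42 left out, with the transcription start site (TSS) of another such gene within 100 kb. Of the 21938 nuclear protein-coding genes of the annotation (GENCODE M21 on mm10), 206 met this rule, and they fell into 54 clusters. The other 158 Zfp genes were isolated by the same measure. SRCAP-YPet was mapped by CUT&Tag with an antibody to GFP, which binds the YPet tag, in 2 replicates of 200000 SYAT cells each in the control condition. SYAT is a mouse embryonic stem cell line made from 1 clone of CGR8 cells in which both Srcap alleles carry YPet and an auxin-inducible degron, and this clone was then given the plant receptor OsTir1 on a lentiviral transgene and sorted as a population. The cells were routinely grown in serum and LIF with kinase inhibitors, and before experiments the medium was changed to serum and LIF without them. They were kept with auxinole, which blocks basal degradation of the tagged protein. Both libraries belong to this 1 group, so no condition was compared, and the study states for its replicates in general that the cells were grown and treated separately. The deposited lists held 6158 peaks in replicate 1 and 12958 in replicate 2, without read numbers, so the depth behind a peak is unknown.

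SRCAP is the ATPase of a remodeling complex that replaces histone H2A by the variant H2A.Z, mostly in nucleosomes next to TSSs. C2H2 zinc finger proteins read DNA through arrays of fingers that each hold a zinc ion. Those that also carry a KRAB domain recruit TRIM28 and the methyltransferase SETDB1, and in embryonic stem cells they silence transposable elements and keep imprints. Their genes multiplied by tandem duplication, so neighbours within a cluster are often close paralogs.

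The label was checked against the coding sequence. In the longest translated coding sequence of each gene, 200 of the 206 members held 3 or more C2H2 finger patterns, with a median of 12 fingers, and 125 (60.7%) held a KRAB A box pattern. The 6 members with fewer than 3 fingers included Zfp935, Zfp707 and Zfp972 with none.

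A gene was called bound where a peak overlapped the promoter window, −1000 to +500 bp around any of its TSSs. SRCAP peaks lay at 51 of the 206 clustered Zfp promoters in replicate 1 (24.8%, 95% Wilson interval 19.4 to 31.1%), at 100 in replicate 2 (48.5%, 41.8 to 55.3%) and at 41 in both (19.9%, 15 to 25.9%). All protein-coding genes gave 15.7%, 30.4% and 12% by the same 3 measures. The members' intervals lay above these shares in each list and in both, and no test was run of the difference. These intervals cover counting error only, and members that share a promoter or a duplicated sequence are not independent. A further 10 members had a peak in replicate 1 only, 59 in replicate 2 only and 96 in neither.

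Isolated Zfp genes were bound about as often as clustered ones. They had peaks at 41 of 158 promoters in replicate 1 (25.9%, 19.7 to 33.3%), at 69 in replicate 2 (43.7%, 36.2 to 51.5%) and at 32 in both (20.3%, 14.7 to 27.2%), and each interval overlapped that of the clustered members. Cluster size moved the share in both replicates little: 22% in clusters of 2, 21.6% in clusters of 3 or 4 and 18.1% in clusters of 5 or more, with overlapping intervals. The other coding genes within 100 kb of a member TSS lay lower. Among 251 such neighbours with fewer than 3 C2H2 patterns, 26 were bound in both (10.4%, 7.17 to 14.7%), near the share of all coding genes. Another 39 neighbours were zinc finger genes under other names, and only 2 of them were bound in both (5.13%, 1.42 to 16.9%). Across all 643 coding genes with 3 or more C2H2 patterns the share was 17.7%.

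**Figure D1:**
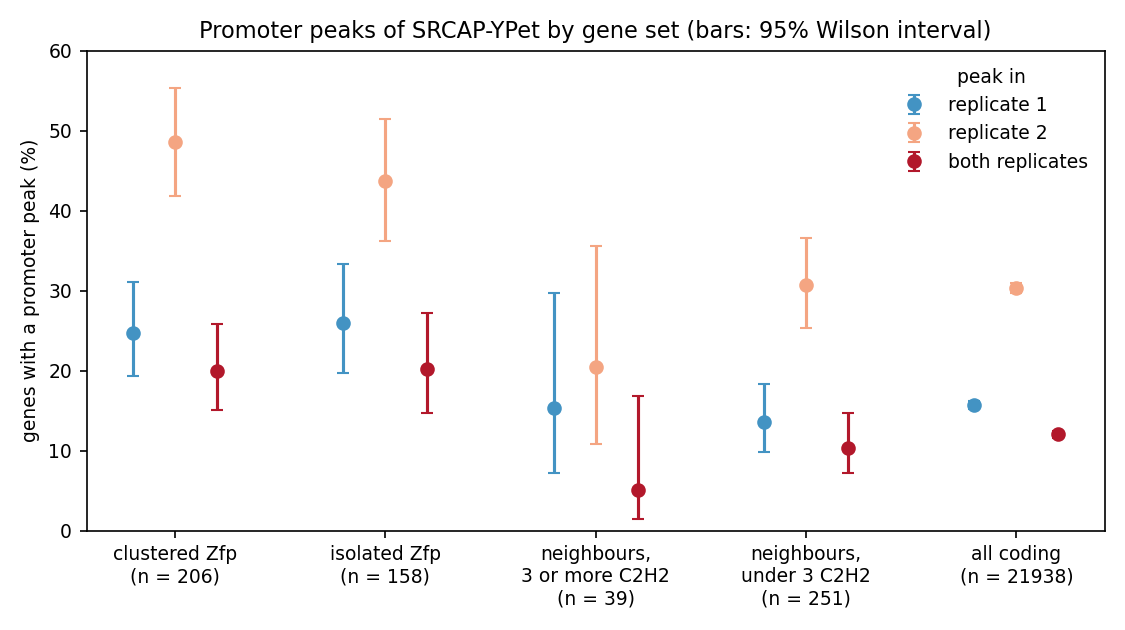
Share of genes with a promoter peak of SRCAP-YPet (vertical axis, percent) for 5 gene sets, in replicate 1, replicate 2 and both. Points are shares and bars are 95% Wilson intervals; clustered and isolated Zfp genes sit at 19.9% and 20.3% for both replicates, above the 12% of all coding genes.

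In all 41 members bound in both, a promoter peak of one list overlapped one of the other by at least 1 bp, against 94.5% of the 2643 coding genes bound in both. The overlap reached 100 bp in 39 of the 41 (95.1%), against 91.9%, and it was 10 bp at Zfp946 and 28 bp at Zfp445. Of the members bound in replicate 1, 80.4% were also bound in replicate 2, and of those bound in replicate 2, 41.0% were bound in replicate 1, close to the 76.7% and 39.7% of all coding genes. Scores of the 41 members, which are 10 times the −log10 of the q-value by their range, ranked alike in part between the lists, with a Spearman rho of 0.510 against 0.396 over the 2643 coding genes.

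Bound members were spread over many clusters. At least 1 member was bound in both replicates in 27 of the 54 clusters, at least 2 in 8 clusters, and every member only in the pair Zfp935 and Zfp934, whose TSSs coincide and which shared a single peak in each list. No member had a peak in either list in 8 clusters with 17 members in all. Among these were Zfp968 to Zfp965, Zfp972 to Zfp931, Zfp987 to Zfp600 and Zfp988 to Zfp978. In them a median of 82.2% to 100% of the 31-base words of the promoter windows occurred elsewhere in the genome. In the others of the 8 clusters it was 0.41% to 6.71%. Of 152 pairs of adjacent members, 9 had both genes bound in both replicates, 39 had 1 and 104 had none.

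**Figure D2:**
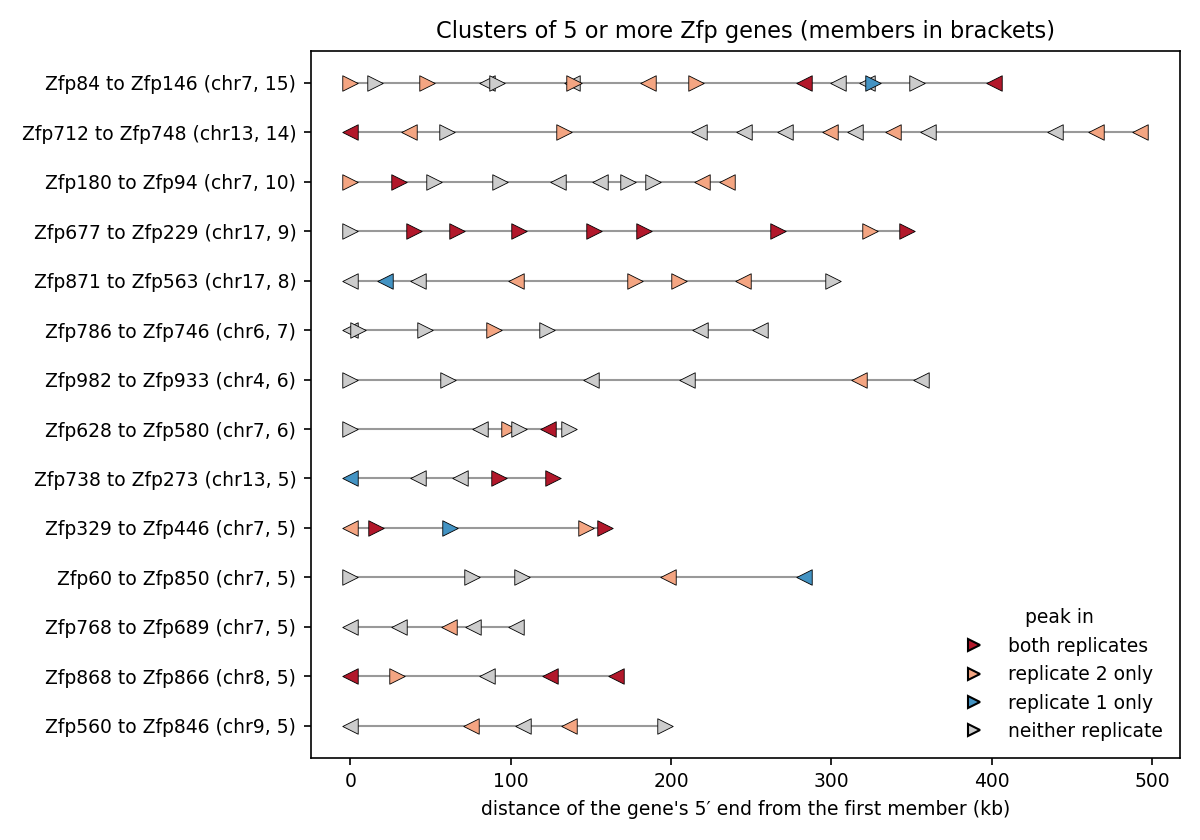
Members of the 14 clusters of 5 or more Zfp genes, drawn by the distance of the gene's 5′ end from the first member of its cluster (kb, horizontal axis). Triangles point in the direction of transcription and are coloured by the replicates with a promoter peak; 7 of the 9 genes of the cluster from Zfp677 to Zfp229 are bound in both replicates.

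The cluster with the most members bound in both replicates was that from Zfp677 to Zfp229 on chromosome 17 (chr17:21383748-21769342), where 9 genes, all with a KRAB pattern and all on the + strand, spanned 352.2 kb between their outermost TSSs. It was singled out here after its values had been seen. SRCAP peaks lay at 7 of the 9 promoters in both replicates. Zfp54 had scores of 42 in replicate 1 and 143 in replicate 2, and Zfp53 had 96 and 121. Zfp51 had 53 and 42, Zfp52 36 and 63, and Zfp983 33 and 58. The scores were 23 and 41 at Zfp948 and 25 and 56 at Zfp229. Zfp53 was thus high in both lists, at percentile 95.2 and 94.8 of all bound coding genes, whereas Zfp948 was at 19.1 and 44.7. Zfp760 had a peak in replicate 2 only, with a score of 50. Zfp677, the first gene of the row, had none, and its nearest peak was 39073 bp away. None of the 3 other coding genes within 100 kb of these TSSs had a peak in either list. The array supplied 7 of the 41 members bound in both, and the 197 members outside it gave 34 (17.3%).

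The bases just upstream of these TSSs are shown because bound genes and a gene without a peak stand side by side there. Each run is the 100 bases before the TSS nearest to the member's strongest peak, or before its only TSS for Zfp677, read 5′ to 3′ along the gene from GRCm38, with CpG dinucleotides in capitals. The window of Zfp229 overlaps an exon of another of its transcripts and is not shown.
Zfp677 (chr17:21383648-21383747, + strand): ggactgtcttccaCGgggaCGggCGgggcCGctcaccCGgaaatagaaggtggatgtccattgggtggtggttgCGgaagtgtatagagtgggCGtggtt
Zfp54 (chr17:21423127-21423226, + strand): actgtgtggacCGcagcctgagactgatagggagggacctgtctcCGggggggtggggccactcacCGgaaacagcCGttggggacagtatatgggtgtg
Zfp51 (chr17:21450274-21450373, + strand): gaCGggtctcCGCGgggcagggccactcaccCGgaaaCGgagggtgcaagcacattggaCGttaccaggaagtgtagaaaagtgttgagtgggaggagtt
Zfp53 (chr17:21488898-21488997, + strand): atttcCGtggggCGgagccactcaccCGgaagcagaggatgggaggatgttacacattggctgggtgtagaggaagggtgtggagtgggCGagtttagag
Zfp52 (chr17:21535439-21535538, + strand): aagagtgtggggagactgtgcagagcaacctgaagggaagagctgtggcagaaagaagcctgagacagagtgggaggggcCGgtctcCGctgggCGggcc
Zfp948 (chr17:21566908-21567007, + strand): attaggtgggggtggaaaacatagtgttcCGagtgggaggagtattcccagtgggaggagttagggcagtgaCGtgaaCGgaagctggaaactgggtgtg
Zfp983 (chr17:21650524-21650623, + strand): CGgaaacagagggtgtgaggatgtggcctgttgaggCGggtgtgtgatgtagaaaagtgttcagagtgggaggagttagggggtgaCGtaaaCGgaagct
Zfp760 (chr17:21707641-21707740, + strand): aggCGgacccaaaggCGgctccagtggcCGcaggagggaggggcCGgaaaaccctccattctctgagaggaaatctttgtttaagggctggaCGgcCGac

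The 8 sequences held 3 to 7 CpGs, against a median of 5 for the 206 members and 4 for all coding genes in the same window of the gene's 5′ end. Pairwise alignments, scored as identical bases per 100, ran from 36 to 68 with a median of 46. No unrelated promoters were aligned for comparison, so these values do not show which pairs share ancestry. The closest pair was Zfp677, which had no peak, and Zfp53, which had peaks of high score in both lists, at 68 identical bases. Zfp677 and Zfp51, also bound in both, shared 67. Among the bound genes the closest pair was Zfp51 and Zfp53 at 65. With Zfp54, Zfp52, Zfp948 and Zfp983, all bound in both, Zfp677 shared 39, 40, 40 and 39, and with Zfp760 47.

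The highest member score of each list was in the cluster from Zfp868 to Zfp866 on chromosome 8 (chr8:69610857-69791178), where 3 of 5 genes were bound in both. Zfp868 scored 125 and 248, Zfp866 159 and 206, and Zfp963 105 and 152. These 3 were the only members with a score of at least 100 in both lists, or 7.32% of the members bound in both, against 3.93% of all coding genes bound in both. Zfp964 had a peak in replicate 2 only (66), and the remaining gene of the cluster had none. Here the surroundings were bound as well: 4 of the 8 neighbouring coding genes had peaks in both lists, and 22.1% of all coding genes on chromosome 8 did. A weaker peak at Zfp866 also lay in the promoter window of Atp13a1.

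Chromosome 7 held 71 members in 15 clusters, and 10 of them (14.1%) were bound in both, against 9.44% of the 2023 coding genes of that chromosome. The largest cluster, Zfp84 to Zfp146, had 15 members. Zfp14 (41 and 30) and Zfp146 (26 and 37), a gene for a protein made almost wholly of fingers, were bound in both. Zfp260 had a peak in replicate 1 only (17), and Zfp84, Zfp790, Zfp383, Zfp74 and Zfp568 had one in replicate 2 only, the strongest being Zfp383 at 83. Another cluster of the chromosome, Zfp180 to Zfp94, had 10 members, with Zfp112 bound in both (46 and 49) and Zfp180, Zfp61 and Zfp94 in replicate 2 only. In Zfp329 to Zfp446 each of the 5 members had a peak in at least 1 list. Zfp110 (41 and 42) and Zfp446 (32 and 50) were bound in both, Zfp128 (40) in replicate 1 only, and Zfp329 (58) and Zfp324 (34) in replicate 2 only. Zfp628 to Zfp580, with 6 members, had Zfp784 bound in both (13 and 81) and Zfp524 in replicate 2 only (50). Zfp60 to Zfp850, with 5 members, had Zfp850 in replicate 1 only (23) and Zfp974 in replicate 2 only (33). Of the 5 genes of Zfp768 to Zfp689, Zfp764 alone had a peak, in replicate 2 (27).

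In smaller clusters of chromosome 7, Zfp78 had the third highest score of any member in replicate 2 (78 and 171), centred upstream of its TSS at −527 bp and −354 bp. Zfp976 (64 and 56) and its neighbour Zfp977 (28 and 61) were both bound, as was Zfp444 (62 and 42).

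Chromosome 13 held 23 members, of which 5 (21.7%) were bound in both, against 13.1% of the 838 coding genes of that chromosome. In its cluster from Zfp712 to Zfp748, with 14 members over 492.7 kb, the replicates differed most: 1 member, Zfp712 (22 and 32), was bound in replicate 1 and 7 were in replicate 2. The other 6 were Zfp708, Zfp455, Zfp953, Zfp429, Zfp87 and Zfp748, with scores from 28 at Zfp953 to 72 at Zfp87. Zfp738 to Zfp273, with 5 members, had Zfp493 (19 and 59) and Zfp273 (34 and 26) bound in both, and Zfp738 in replicate 1 only (45). Zfp935 and Zfp934 had their common peak at 46 and 61.

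Some clusters had no member bound in both replicates. Zfp871 to Zfp563 on chromosome 17, with 8 members, had none bound in both, with Zfp811 in replicate 1 only (39) and Zfp870, Zfp472, Zfp952 and Zfp763 in replicate 2 only (35 to 52). On chromosome 6, 1 of the 7 genes of Zfp786 to Zfp746 had a peak, Zfp212 in replicate 2 (57). On chromosome 9, Zfp560 to Zfp846, with 5 members, had Zfp26 (43) and Zfp266 (65) in replicate 2 only, while 2 of its 7 neighbouring genes were bound in both. The 13 members of chromosome 4, in 4 clusters, had no peak in replicate 1 and 2 in replicate 2, at Zfp984 (29, in the 6-gene cluster Zfp982 to Zfp933) and Zfp981 (46). Of all coding genes of the chromosome 10.7% were bound in both. In these 4 clusters the median share of promoter 31-base words found elsewhere ran from 52.9% to 89.9%, and the methods of the study kept unique alignments. Its part in the missing peaks was not tested.

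By chromosome, the members bound in both ranged from 0 of 13 on chromosome 4, 0 of 5 on chromosome 15 and 0 of 4 on the X chromosome to 12 of 32 (37.5%) on chromosome 17, where 11.9% of all coding genes were. Without the array from Zfp677 to Zfp229, chromosome 17 had 5 of 23 (21.7%), below the 33.3% of chromosomes 5, 8, 16 and 18, which hold 3 to 9 members each. Outside its large array, chromosome 17 had Zfp81 (113 and 85), Zfp960 (84 and 103), Zfp820 (52 and 50), Zfp946 (32 and 40) and Zfp947 (26 and 46). The remaining members bound in both lay in clusters of 2 to 4 genes on other chromosomes. They were Zfp937 (77 and 83) and Zfp442 (26 and 65) on chromosome 2, Zfp672 (69 and 89) and Zfp2 (60 and 34) on chromosome 11, and Zfp445 (45 and 60), Zfp872 (45 and 36) and Zfp810 (20 and 30) on chromosome 9. Single such genes were Zfp12 on chromosome 5 (47 and 58), Zfp637 on chromosome 6 (43 and 61), Zfp174 on chromosome 16 (43 and 71) and Zfp397 on chromosome 18 (39 and 95). Zfp672 had a weaker peak as well (20 and 57), near its outermost TSS, which also lay in the window of the divergent gene Sh3bp5l and cannot be assigned to either gene.

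**Figure D3:**
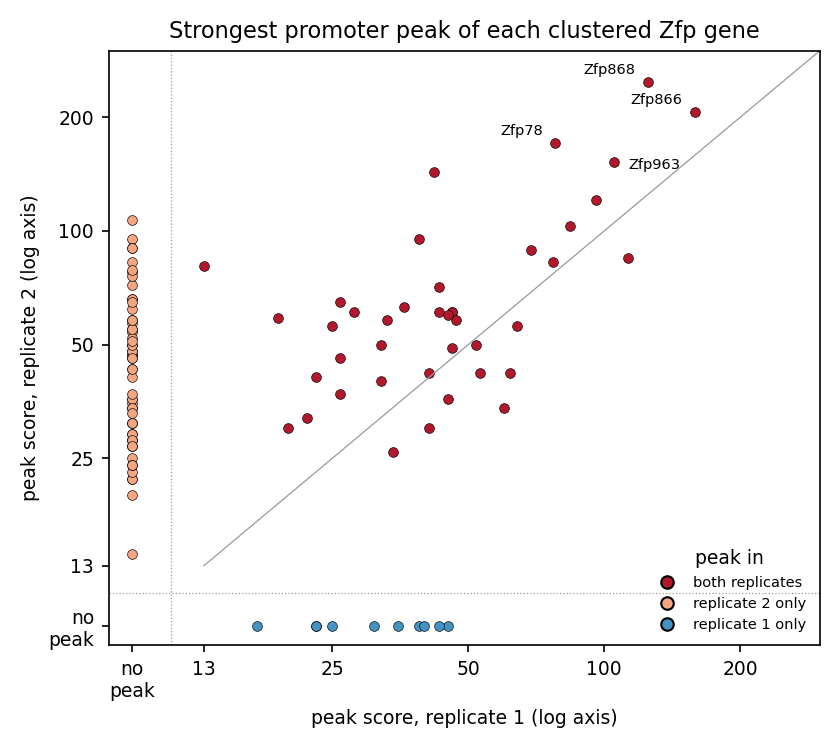
Score of the strongest promoter peak of each bound clustered Zfp gene in replicate 1 (horizontal) and replicate 2 (vertical), on log axes, with genes lacking a peak in a list drawn on its margin. Zfp868, Zfp866 and Zfp963 are the only genes above 100 in both lists, and the line marks equal score values, which need not mean equal binding since the depth of the lists is unknown.

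Of members with a peak in 1 list, the highest scores in replicate 2 were 107 at Zfp345, 95 at Zfp120, 90 at Zfp882 and Zfp617, which share the peak, and 83 at Zfp383. In replicate 1 they were 45 at Zfp738, 43 at Zfp597, 40 at Zfp128, 39 at Zfp811 and 35 at Zfp239. Zfp597 has the divergent coding genes Gm20695 and Naa60 within 1000 bp.

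Genes with a known role were split. Of 17 names fixed for this purpose 13 were clustered: 3 were bound in both, 1 in replicate 1 only, 4 in replicate 2 only and 5 in neither. The 3 bound in both compare with 19.9% of all members and 12% of all coding genes. Zfp445, which helps to keep imprints, was bound in both, as were Zfp960 and Zfp110, whose protein binds the neurotrophin receptor p75. Zfp809, which starts the silencing of murine leukemia virus, had a peak in replicate 2 only (76), and so had Zfp568 (27), a repressor of a placental Igf2 transcript, Zfp708 (55) and Zfp345 (107). Zfp961 had a peak in replicate 1 only (31). Zfp677, Zfp35, Zfp30, Zfp992 and Zfp105 had none, although a replicate 2 peak lay 2376 bp from the TSS of Zfp35.

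The partners of KRAB zinc finger proteins were read from a list of 18 genes, none of them a member. SRCAP peaks were in both lists at 8 of them: Cbx3, Cbx5, Atf7ip, Hdac2, Smarcad1, Atrx, Daxx and Dnmt1, against 12% of all coding genes. Cbx3, which codes for the heterochromatin protein HP1 gamma, had the highest scores (81 and 152). Trim28, the corepressor itself, had a peak in replicate 1 only (26), Hdac1 in replicate 2 only (63), and the other 8, Setdb1 among them, in neither.

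Where a peak was present, it lay close to the TSS and slightly inside the gene. The midpoint of the 52 member promoter peaks of replicate 1 had a median of +53 bp from the nearest TSS, and 88.5% were within 200 bp, against +2 bp and 67.6% for the 3090 promoter peaks of all coding genes. Only 32.7% of member midpoints were upstream of the TSS, against 48.9%. In replicate 2 the 100 member peaks had a median of +45 bp, 76% were within 200 bp and 40% upstream, against +2 bp, 67.0% and 48.7%. The median was thus downstream in both lists, and with 1 TSS per gene the 2 medians became +88.0 and +106 bp, so that replicate 2 then had the larger one. Isolated Zfp genes had medians of +31 and +5 bp, with 75.6% and 77.5% of peaks within 200 bp. The most distant was Zfp442, with midpoints at −1044 and −1140 bp. Scores and widths were near those of other promoters: the median score was 40.5 and 48.5 against 35.0 and 43.0, and the median width 354.5 bp and 413.5 bp against 354.0 bp and 409.0 bp.

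**Figure D4:**
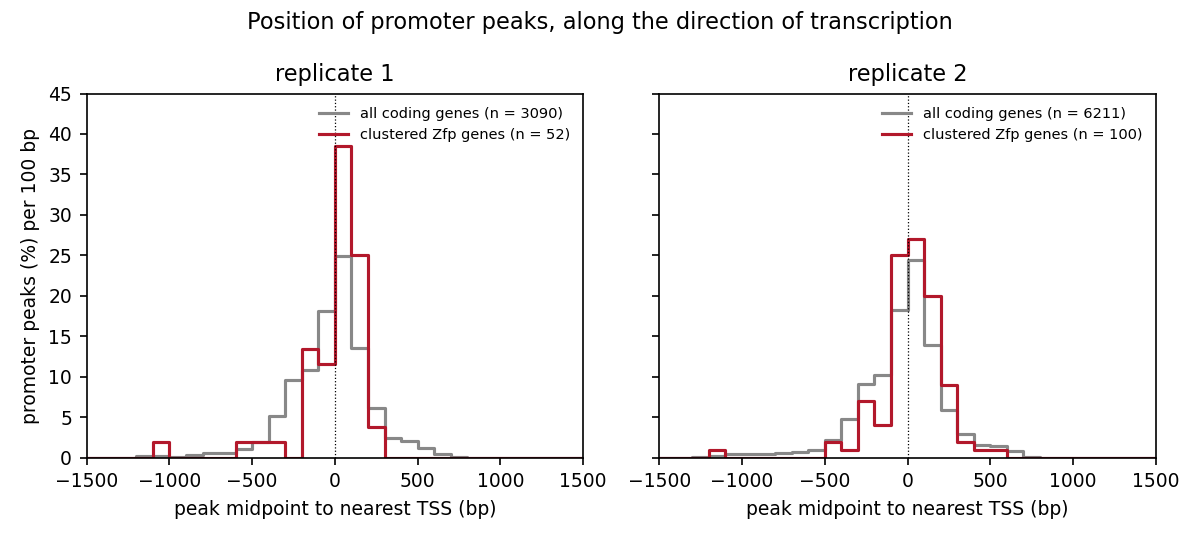
Distance from the nearest TSS to the midpoint of promoter peaks (bp, positive in the direction of transcription, bins of 100 bp) in each replicate, as percent of the peaks of clustered Zfp genes and of all coding genes. Member peaks have medians of +53 and +45 bp, those of all coding genes +2 bp in both lists.

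Divergent coding partners within 1000 bp were found at 10 members (4.85%), against 12.7% of isolated Zfp genes and 11% of coding genes. The 10 members that lay within 1000 bp of another member TSS were Zfp935 and Zfp934, Zfp942 and Zfp943, Zfp944 and Zfp758, Zfp668 and Zfp646, and Zfp882 and Zfp617. Of these, Zfp935 and Zfp934 shared a peak in both lists, and Zfp944 with Zfp758 and Zfp882 with Zfp617 shared one in replicate 2, so that each such peak counts for 2 genes. Of the member promoter peaks, 4 of 52 in replicate 1 and 7 of 100 in replicate 2 also lay in the window of a coding gene that is no member. With 1 annotated TSS, 10 of 31 members (32.3%) were bound in both, against 2 of 19 isolated Zfp genes (10.5%) and 4.36% of the 4882 such coding genes. With more TSSs it was 17.7% of members, 21.6% of isolated Zfp genes and 14.2% of all coding genes.

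Promoter sequence was compared over the same windows. The members bound in both had a median GC content of 47.0% and a CpG observed to expected ratio of 0.41, and those bound in neither had 47.3% and 0.37. All coding genes bound in both had 50.4% and 0.50. Only in the highest quartile of GC content over all coding genes, above 53.8%, was no member bound in replicate 1: 0 of 21 members had a peak there, which allows a share of up to 14.3% (3 counts), against 18.5% of the 5485 coding genes of that quartile. In replicate 2, 7 of the 21 members (33.3%) had a peak, close to the 35.2% of all coding genes, and 13.7% of all coding genes there were bound in both. In the quartile below it, 15 of 45 members (33.3%) were bound in both, against 13.4%.

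**Figure D5:**
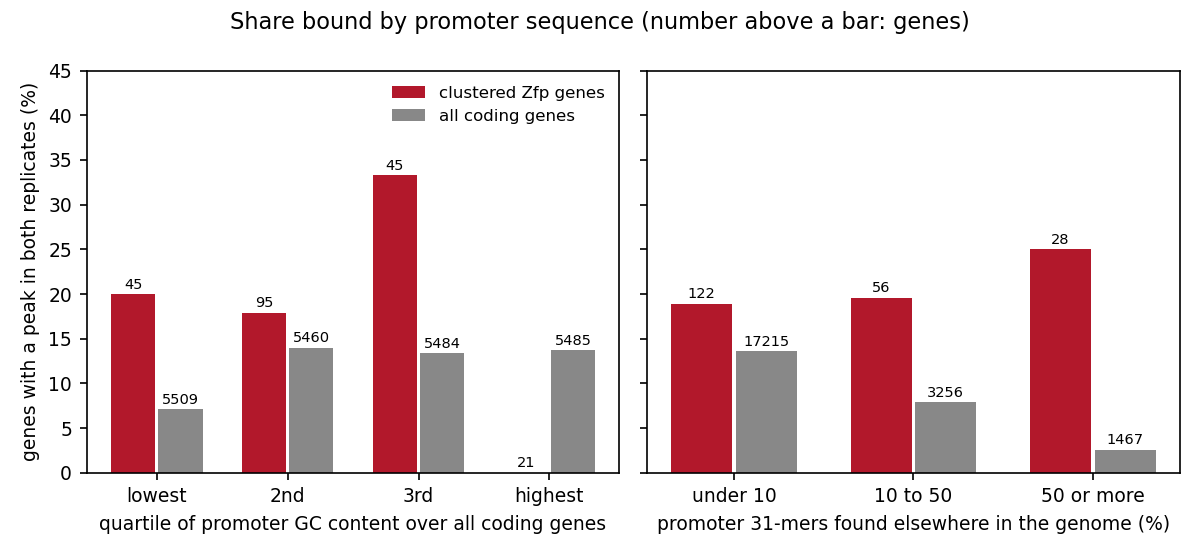
Share of genes bound in both replicates (percent) by quartile of promoter GC content over all coding genes, left, and by the percent of promoter 31-mers that occur elsewhere in the genome, right, for clustered Zfp genes and all coding genes. Numbers above the bars are genes; the members fall to 0 of 21 in the highest GC quartile and are at 25% where at least 50% of 31-mers are copied, a bin in which their share in replicate 2 alone is 35.7%, down from 52.5% below 10%.

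Copied sequence was measured because the methods of the study kept unique alignments. In the promoter windows a median of 7.53% of the 31-base words of members occurred again elsewhere in the assembly, against 2.91% for all coding genes. At least 50% did in 28 members, and for Zfp97, Zfp968 and Zfp965 all of them did. Binding in both fell over all coding genes with this share, from 13.6% below 10% to 7.89% at 10 to 50% and 2.59% above. Among members it was 18.9% of 122, 19.6% of 56 and 25% of 28. In replicate 2 alone, however, the members' share went down over the same bins, from 52.5% to 46.4% and 35.7%, as did that of all coding genes, from 34.3% to 21.3% and 4.36%. In replicate 1 it was 22.1%, 30.4% and 25% of members, against 17.8%, 10.5% and 3.14% of all coding genes. The 7 highly copied members bound in both were Zfp935, Zfp934, Zfp960, Zfp947, Zfp937, Zfp442 and Zfp976, and Zfp345, Zfp981 and Zfp984 had a peak in replicate 2. Inside the peak itself the copied share was 83.1% at Zfp935 and Zfp934 and 33.1% at Zfp937 in replicate 1. None of the 3 genes with wholly copied windows had a peak. The part of copied sequence in the members' shares was not tested.

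Short motifs were searched on both strands in the peaks. The YY1 core AANATGGC was in 10 of the 52 member peaks of replicate 1 (19.2%) and 13 of the 100 of replicate 2 (13%), against 8.71% and 9.47% of the promoter peaks of all coding genes. In the 250 bases before to 50 bases after the gene's 5′ end it was in 10.2% of members, 10.1% of isolated Zfp genes and 6.16% of all coding genes. Of 10 such motifs in replicate 1 peaks of members, 6 lay within 50 bp of a TSS, and of 14 in replicate 2 peaks 8 did, or 60% and 57.1% against 32.7% and 35.7% for all coding genes. The sequences give 30 bases around the motif at the TSS of 4 members bound in both and of the retroelement regulators Zfp809 and Zfp961, with the motif in capitals, read on the strand that holds it.
Zfp868 (chr8:69625521-69625550, + strand): aacctttagctAACATGGCggccgaaaaga
Zfp866 (chr8:69774882-69774911, + strand): agccgagccacAATATGGCggccgtgaaga
Zfp784 (chr7:5038397-5038426, - strand): ggcttaggtacAAGATGGCcgccgcgcgcc
Zfp977 (chr7:42592537-42592566, + strand): attgaaccagcAACATGGCgcccggaagca
Zfp809 (chr9:22225729-22225758, - strand): ccacaggacccAAGATGGCaggctcagacc
Zfp961 (chr8:71951051-71951080, - strand): ggacagcgccgAAAATGGCggcgcccggcc

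Measured from its centre, the motif was at +9 and +14 bp of a TSS at Zfp868 and Zfp866, the genes with the highest scores, and at +34 bp at Zfp784. It was at −5 bp at Zfp977 and −8 bp at Zfp809, and at the TSS itself at Zfp961. The SP letters GGGCGG were in 48.1% and 51.0% of member peaks, against 67.0% and 68.8%, and the NFY letters AGCCAAT in 17.3% and 13% against 12.8% and 11.6%. The NRF1 letters GCGCATGC were in 0 and 2 member peaks, and the ZBTB33 letters TCTCGCGA in none, against 4.14%, 5.18%, 2.07% and 2.29%. These are letter matches and not measured sites.

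The fingers and KRAB pattern did not separate bound from unbound members. Of the 125 members with a KRAB pattern 20.0% were bound in both, and of the 81 without 19.8%. Members bound in both and in neither each had a median of 12 fingers.

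Outside promoter windows few peaks lay in these genes. There were 7 in replicate 1 and 19 in replicate 2, or 1.76 and 4.77 per Mb of gene, against 1.10 and 2.43 over all coding genes. Of them 4 and 9 were in the last exon, which in these genes usually codes for the finger array and holds 14.9% of their bases. Over all coding genes 9.31% and 8.56% of such peaks were in the last exon, which held 3.21% of bases. The 96 members with no promoter peak had a median distance of 24.1 kb from a TSS to the nearest peak of either list, and 5 of them had a peak within 2000 bp: Zfp865, Zfp93, Zfp575, Zfp27 and Zfp82.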

How the data were processed

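CUT&Tag of SRCAP-YPet was measured in 2 samples of 1 group. The authors deposited 1 peak list per sample, giving each peak's position, its name and a score. The deposited score is a whole number from 13 up, read here as 10 times the −log10 q of the peak caller. STAR, Picard and MACS2 and the builds mm10 and dm6 are named in the submitters' processing notes. The study's methods describe unique alignment, duplicate removal, downsampling by Drosophila reads and a blacklist in a section shared by ChIP-seq and CUT&Tag, and whether each step and a control library applied to these lists is not stated. Read length is given differently in the labels and in the methods.

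Members, lists and the choice of features were made with earlier results of these data known. Genes, transcripts and TSSs came from GENCODE M21, and sequence from GRCm38, the assembly of mm10. A gene was bound in a list where at least 1 bp of a peak fell between −1000 and +500 bp of any TSS. Clusters were built by single linkage at 100 kb. Shares carry 95% Wilson intervals for counting error, and no test was run, since there is 1 group and genes are not replicates. C2H2 patterns (C, 2 to 4 residues, C, 12 residues, H, 3 to 5 residues, H) and KRAB patterns were counted in coding sequences translated from the annotation, not in RefSeq proteins as planned. Copied sequence was the share of 31-mers of the promoter window that occur more than once in the assembly. Upstream sequences were aligned globally with Biopython 1.88. Overlaps were checked against bedtools 2.31.1 and tested on simulated peaks, and Python 3.11.15, numpy 2.4.6, scipy 1.17.1 and matplotlib 3.10.9 were used.

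Genes named are every member bound in both lists, the bound members of clusters of 5 or more, a list of genes with known roles, the 5 highest scores among members bound in 1 list, and 18 corepressor genes. Mitochondrial genes were left out. Alternatives covered the window, TSSs, cluster distance, score, list length, repeats, fingers, overlap and replicates. Leaving out the Zfp677 to Zfp229 cluster and the copied promoters was added after seeing the data.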

Additional observations from a re-analysis of the deposited data

How the results depend on the processing

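The share of clustered Zfp genes bound lay above that of all coding genes in 41 of 41 values from other settings, by 1.42 to 2.02 times. Of 120 values under alternatives that could change them, 95 were classed as the same and 25 as moved. A share was the same within the 95% interval of the main value, and a count within a fixed factor of it. A median was the same within the standard deviation of the values of the 2 replicates. Requiring a TSS inside the peak gave 18.9%, 37.9% and 14.1% of members in replicate 1, replicate 2 and both, isolated genes 17.7%, 34.8% and 10.8%, and neighbours 7.93%, 19.7% and 5.86%. A minimum score of 50 gave members 6.80%, 24.3% and 5.34%, isolated genes 6.96%, 23.4% and 3.8%, and neighbours 2.76%, 10.7% and 2.07%. With lists of equal length, replicate 2 gave 33.0% of members, 31.6% of isolated genes and 16.9% of neighbours, whose share in both became 5.86%. With 1 TSS per gene 24.1% of neighbours were bound in replicate 2, and the median peak position of members became 88.0 bp and 106 bp in the 2 lists, which reverses their order. Under these settings fewer peaks or TSSs enter by construction. With 1 replicate left out, the share called bound in the other ranged from 24.8% (without replicate 2) to 48.5% (without replicate 1) for members, from 25.9% to 43.7% for isolated genes and from 13.8% to 29.3% for neighbours.

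Without the array from Zfp677 to Zfp229, 17.3% of members were bound in both, and without the 28 members of copied promoters 19.1%, both chosen after seeing the data. No paired analysis was possible because both samples form a single group. Depth is unknown, so a promoter without a peak may be unbound or under the detection limit, and neither the peak number nor the scores can be compared between the lists. The cause of the difference between the replicates was not tested.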

Other observations

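Values outside the comparisons were few. Of the 16 members with the NRF1 letters GCGCATGC around the gene's 5′ end, 0 were bound in both replicates, which allows up to 18.8% (3 counts), 1 was bound in replicate 1 and 4 in replicate 2, while 16.9% of the 813 coding genes with these letters were bound in both. Of isolated Zfp genes with them 0 of 5 were, too few to set a useful limit. With the NFY letters AGCCAAT, 8 of 25 members (32%) were bound in both, 6 of 20 isolated Zfp genes (30%) and 19.7% of such coding genes. Motifs and the feature quartiles were read after the peaks had been assigned, with 7 motifs searched, so single shares among them, and those by number of TSSs, were picked from many.

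The lowest quartile of CpG observed to expected ratio over all coding genes held 16 members, 1 of them bound in both (6.25%), and 5486 coding genes, of which 0.328% were. In the quartiles above it, in rising order, 22.4%, 22.2% and 16.7% of members were bound in both. All coding genes had 10.2%, 17.2% and 20.4% there, so in the highest quartile the members' share lay below theirs. In the marker genes of embryonic stem cells read for comparison, Zfp42 had peaks in both lists (23 and 64), Pou5f1 (29) and Sox2 (49) in replicate 2 only, and Nanog in neither. Peak lists hold no expression, so the identity of the cells was not checked by it.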
